A study of Rattus norvegicus with 20 samples.

Results

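Old and young rat iliac arteries were compared 30 min after balloon injury on 3 of the 20 arrays of the series, chosen by their titles and not by any measured value. Each array held RNA of 1 old artery (22 months) and 1 young artery (3 months) of Fisher rats in different dyes, so that the 20 arrays carried 40 artery samples on the Agilent Whole Rat Genome design. Both arteries of each of the 3 arrays were labelled as injured, by inflation of a Fogarty balloon catheter in the right iliac artery. Arrays of old against young arteries 3 days (4 arrays) and 7 days (4 arrays) after injury entered only the spread and dye term of the fit. Comparison arrays used here held old against young healthy arteries (3 arrays), old against old injured arteries at 30 min (3 arrays) and young against young injured arteries at 30 min (3 arrays), with the same strain, tissue and ages. The study describes these arrays in more than one way: headings of its gene lists describe the young against young arrays as injured against control arteries, and the young arteries set against old ones at 30 min as control, while its text calls them injured. The labels were followed, but the ranges given for arrays within an age may hold an effect of injury rather than only the spread between like arteries, and if those headings hold, age and injury cannot be told apart at 30 min. Suppliers differed by age (National Institute of Aging for old rats, Harlan Laboratories for young rats), so age and supplier cannot be told apart, and the methods and the design text give other ages for the young rats than the labels. No label ties an artery to an animal, so every p-value is relative to the spread among these samples, which may be technical.

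Balloon inflation strips the endothelium and stretches the smooth muscle of the media. Within minutes platelets attach to the bare wall and smooth muscle cells switch on immediate early genes, while leukocyte entry, proliferation and matrix deposition follow over days. Ageing of the arterial wall is known for lower synthesis of fibrillar collagen, inflammatory activation and changes in the renin-angiotensin system.

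All values are log2 ratios of old over young, so 1 is a 2-fold higher and −1 a 2-fold lower signal in the old artery. The old artery was in Cy5 on replicates 1 and 3 and in Cy3 on replicate 2, whose sign was turned. The direction was set from the dyes in the labels and is likely rather than stated. Across all 41010 probes, replicates 1 and 3 correlated at r = 0.22, while replicate 2 correlated at −0.05 with each of them, and probes are not independent replicates. Agreement with replicate 2 grew with the size of the ratio: of the 215 probes past a log2 ratio of 1 in the same direction on replicates 1 and 3, 132 (61.4%) had the same sign on replicate 2, and of the 26 past 1.5, 18 did (69.2%). All 4 probes past 2 had the same sign there. Of the 2295 probes past 0.5, 1111 did (48.4%), so small ratios did not repeat across the dyes. The SD over probes was 0.46, 0.36 and 0.52 on replicates 1, 2 and 3. On these arrays 62.4 to 65.0% of the probes had a value equal in every digit to that of another probe, and the cause was not tested. Such shared values are given beside named probes, but not for list genes, which are means of their probes. With 3 arrays, the number of arrays limits the precision, and spot intensities were not examined.

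**Figure D1:**
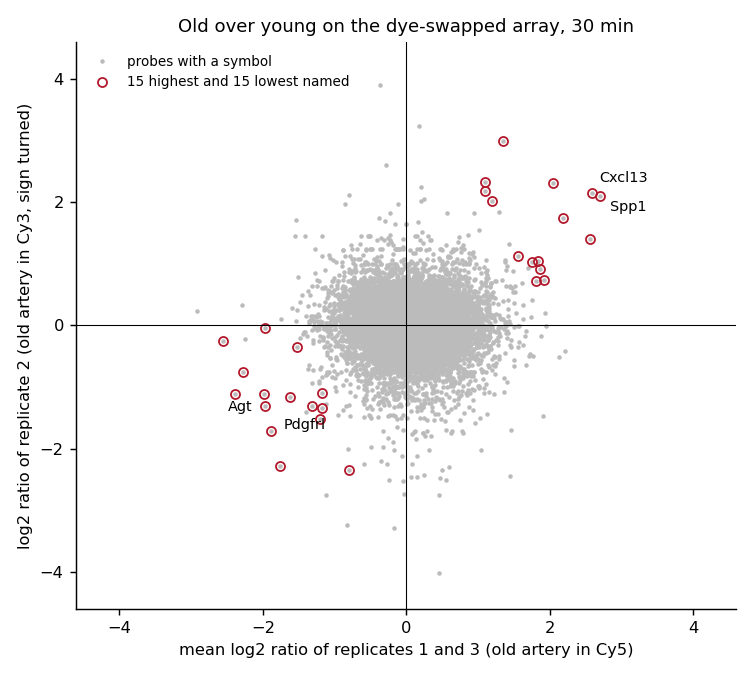
Log2 ratio of old over young on the dye-swapped replicate 2 (y axis, sign turned) against the mean log2 ratio of replicates 1 and 3 (x axis), with 1 grey point for each of the 21394 probes with a gene symbol. The named probes, circled in red, were selected to lie in the same direction on all 3 arrays, and the bulk of the probes forms a round cloud about 0.

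A total of 4 genes differed between old and young arteries 30 min after injury once p-values were adjusted over all 41010 probes. The secreted integrin ligand Spp1 (osteopontin) and the B cell chemokine Cxcl13 were higher in old arteries, and the angiotensin precursor Agt and the platelet-derived growth factor receptor-like gene Pdgfrl were lower. They were the 4 probes called of 41010 tested (0.00975%) by limma at a Benjamini-Hochberg adjusted p under 0.05. In these whole arteries, fewer cells of a type and less RNA per cell cannot be told apart.

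The first base of transcription of Spp1 and of Cxcl13 lies on chromosome 14 in the RefSeq annotation of GRCr8, and 120 bases before it are shown for both because these genes had the highest fitted ratios. The window of Spp1 is chr14:5619805-5619924 on the minus strand and that of Cxcl13 is chr14:13917921-13918040 on the minus strand, and capitals mark TATAAA or TTTAAA.
Spp1: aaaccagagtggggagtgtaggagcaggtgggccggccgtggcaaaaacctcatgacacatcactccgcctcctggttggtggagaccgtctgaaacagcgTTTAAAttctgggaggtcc
Cxcl13: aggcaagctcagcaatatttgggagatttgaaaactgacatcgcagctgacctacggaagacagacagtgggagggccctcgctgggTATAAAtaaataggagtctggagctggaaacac
Cxcl13 held TATAAA 28 to 33 bases before the start, which 6.66% of the 33469 rat promoters in the table hold on either strand in the same window. Spp1 held TTTAAA, which reads the same on both strands, 14 to 19 bases before the start, as did 5.39% of promoters anywhere in this window. Neither window held CCAAT (19.9% of promoters) or TGACTCA (1.93%) on either strand, and matches of these letters are descriptions and not binding sites.

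Spp1, which is made by macrophages and by smooth muscle cells of injured arteries, had log2 ratios of 2.80, 2.10 and 2.59 on replicates 1, 2 and 3 (probe A_44_P491796). Its fitted ratio was 2.50 ± 0.36 (SE), or 5.67-fold, with a limma adjusted p of 0.0373. All 3 arrays lay above all 6 arrays within an age, where Spp1 ran between −0.92 and 1.16, with the doubt on their content given above. Cxcl13, which draws B cells through the receptor Cxcr5, had ratios of 3.22, 2.16 and 1.95 (probe A_44_P653053), and its fitted ratio was 2.38 ± 0.35 (SE), or 5.22-fold, with a limma adjusted p of 0.0388. The 6 within-age arrays reached only 1.02 for Cxcl13. Agt had ratios of −2.18, −1.30 and −1.77 (probe A_43_P13272, 1 value shared with another probe), and its fitted ratio was −1.76 ± 0.25 (SE), or 3.39-fold lower, with a limma adjusted p of 0.0373. Agt was below its within-age range of −0.04 to 1.09 on each array. Pdgfrl had ratios of −1.06, −1.30 and −1.58 on probe A_44_P299835, with a fitted ratio of −1.28 ± 0.20 (SE) and a limma adjusted p of 0.0485. A second Pdgfrl probe, A_44_P365794, read 0.07, 0.09 and −0.35, all of them values shared with other probes. The calls need all 3 arrays: without any 1 replicate no probe passed the adjusted threshold, and the fitted ratio ranged from 2.34 to 2.77 for Spp1, 2.05 to 2.69 for Cxcl13, −2.07 to −1.54 for Agt and −1.44 to −1.18 for Pdgfrl. With only these 3 arrays in the fit, with within-age arrays turned by dye, or with replicate 2 as deposited, no probe passed either.

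**Figure D2:**
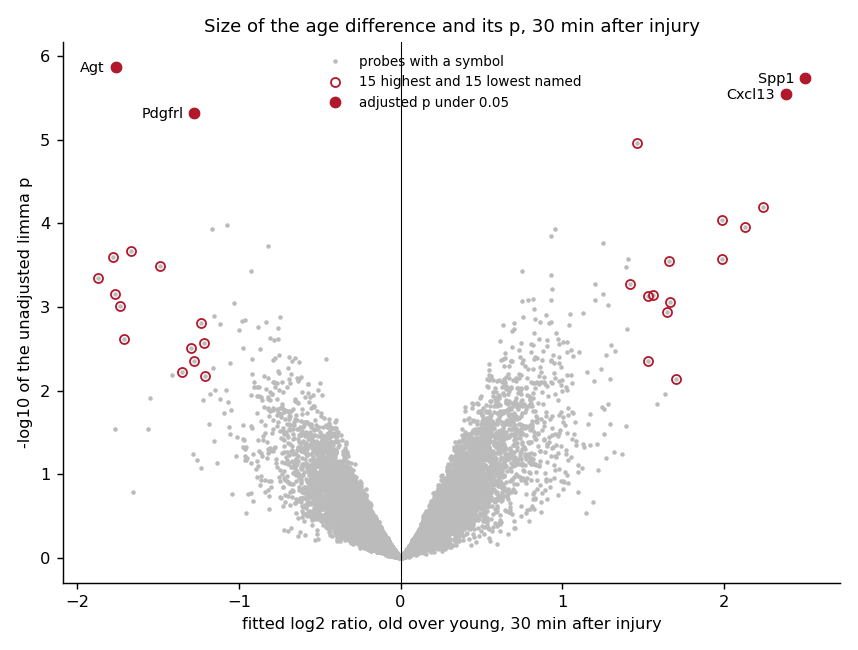
Fitted log2 ratio of old over young 30 min after injury (x axis) against −log10 of the unadjusted limma p (y axis) for the 21394 probes with a gene symbol (grey). Filled points are the 4 probes past an adjusted p of 0.05 over all 41010 probes, Spp1 and Cxcl13 on the right and Agt and Pdgfrl on the left. Open red circles are the other named probes.

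Below that threshold, 218 of 41010 probes (0.532%) passed an unadjusted limma p under 0.05 with a 2-fold difference, 135 higher (0.329%) and 83 lower (0.202%) in old arteries. A stricter rule, an unadjusted p under 0.01, a 2-fold difference and the same sign on all 3 arrays, left 69 of the 21394 probes with a symbol (0.323%), and the 15 highest and 15 lowest of these are described by role. They were selected on these arrays, so their sizes are a description, and those outside the 4 genes above did not pass the threshold adjusted over all 41010 probes.

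Among genes of immune signalling, Ubd, a ubiquitin-like modifier induced by interferon gamma and tumour necrosis factor, had ratios of 2.16, 2.32 and 1.92 (limma adjusted p of 0.320). Its arrays were close together and far above the within-age range of −0.64 to 0.51. RT1-CE5, a class I histocompatibility gene of a multigene family in which probes can cross-hybridize, read 1.41, 1.13 and 1.70 on probe A_44_P172850. Its limma adjusted p was 0.0757 over all probes and 0.0373 in a fit of only probes with a symbol. Its other probe, A_42_P511274, read 0.29, −0.13 and 0.04 (2 shared values). Faslg, the death ligand of cytotoxic lymphocytes, had ratios of 1.09, 1.03 and 2.41, but the within-age arrays reached 2.20, and the fitted ratio of 1.67 became 1.06 without replicate 3. Btnl8, of the butyrophilin family, had ratios of 1.60, 2.03 and 0.78 (1 shared value), and only replicate 2 lay above the highest within-age array at 1.93. The lowest within-age array for Btnl8, at −2.68, was larger in size than all 3. Olr1, the scavenger receptor for oxidized low-density lipoprotein, read 0.58, 2.18 and 1.61, and replicate 1 lay inside the within-age range. Vcam1, the endothelial and smooth muscle ligand that arrests leukocytes, read 1.15, 1.33 and 1.73 with a limma adjusted p of 0.460. All 3 arrays lay above the highest within-age array at 0.38, but the lowest, at −1.61, was larger in size than replicates 1 and 2. Sele, the endothelial selectin that slows leukocytes, went the other way from Vcam1 with −1.28, −0.74 and −0.74 and passed an unadjusted p under 0.05 by gene.

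Among genes of the vessel wall and its matrix, Mmp27, a matrix metalloproteinase, had the lowest fitted ratio of the named probes at −1.87, with −1.82, −2.28 and −1.72 on the arrays. Col1a1, the alpha 1 chain of type I collagen, read −2.02, −1.11 and −2.78 on probe A_44_P238421 and −0.74, −0.93 and −1.69 on probe A_44_P350521. Its remaining probe, A_44_P419137, stayed between −0.24 and −0.16, so its 3 probes disagreed in size. P3h3, which hydroxylates collagen prolines, read −1.14, −1.10 and −1.21, all 3 of them shared values. Col24a1, a minor fibrillar collagen chain, went the other way with 2.95, 1.41 and 2.15, and replicate 2 lay inside its within-age range of −1.65 to 1.61. Esm1 (endocan), a proteoglycan secreted by endothelium, read 0.62, 2.33 and 1.58 on probe A_44_P189363 and 0.30, 1.36 and 1.13 on probe A_43_P12257, lowest on replicate 1 with both probes. Agtr2, the type 2 angiotensin receptor, read −1.46, −1.33 and −0.91 on probe A_42_P470283 (1 shared value). Probe A_44_P343615 of Agtr2 read 0.19, −0.32 and −0.08 (also 1 shared value).

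Among metabolic and other genes, Fasn, which makes fatty acids, was low with both its probes. Probe A_44_P235985 read −2.33, −1.11 and −1.64, and probe A_44_P235978 read −2.06, −1.16 and −1.18. Replicate 1 of the old against old arrays read −1.55 and −1.48 on these probes, lower than replicate 2 of both and replicate 3 of A_44_P235978. Igf2bp2, which binds the messenger RNA of insulin-like growth factor 2, read −2.30, −1.72 and −1.49, below its within-age range of −0.84 to 0.52 on each array. Gp1bb, a subunit of the platelet receptor for von Willebrand factor, read −1.48, −2.34 and −0.13, near 0 on replicate 3, and its fitted ratio of −1.35 became −0.79 without replicate 2. Kansl3, a subunit of a histone acetyltransferase complex, rested on replicate 1 with −4.04, −0.25 and −1.07 (2 shared values), and its fitted ratio of −1.74 became −0.66 without it. The homeobox gene Msx3 read −1.51, −0.75 and −3.03, and −1.76 became −1.13 without replicate 3. Fam107a read −1.28, −0.03 and −2.67 (1 shared value), with a fitted ratio of −1.28 that became −1.96 without replicate 2 and −0.66 without replicate 3. The Ras-like GTPase gene Diras1 read −0.91, −0.35 and −2.15 (2 shared values), with a fitted ratio of −1.21 that became −1.88 without replicate 2 and −0.63 without replicate 3. Mlf1 was low on all 3 arrays with −0.77, −1.53 and −1.63, all shared values. The other high ones were the dynein heavy chain gene Dnah7 (1.63, 2.99 and 1.05, with 2 shared values), the pancreatic carboxypeptidase gene Cpa1 (2.47, 1.75 and 1.89), the transcription factor gene Dmrt2 (2.25, 0.74 and 1.59), the plasma kallikrein gene Klkb1 (0.56, 0.73 and 3.04, fitted ratio 1.53 and 0.64 without replicate 3), the secretion gene Cadps (2.80, 1.05 and 0.86) and LOC100361261 (1.57, 0.92 and 2.15). Of all 30 probes, 19 had all 3 arrays beyond all 6 within-age arrays in the direction of their ratio. So had 1296 of the 21394 probes with a symbol (6.06%), and this is no result about the 30, because the rule asked for large ratios. The named probes of Col24a1, Cpa1, Olr1, Faslg, Btnl8, Dmrt2, LOC100361261, Mlf1 and Kansl3 and both of Fasn did not have all 3 arrays beyond. Within-age arrays kept their deposited sign, so larger values on the other side of 0 did not count against a probe. Gp1bb, for example, was counted with within-age values of 0.49 to 2.99.

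**Figure D3:**
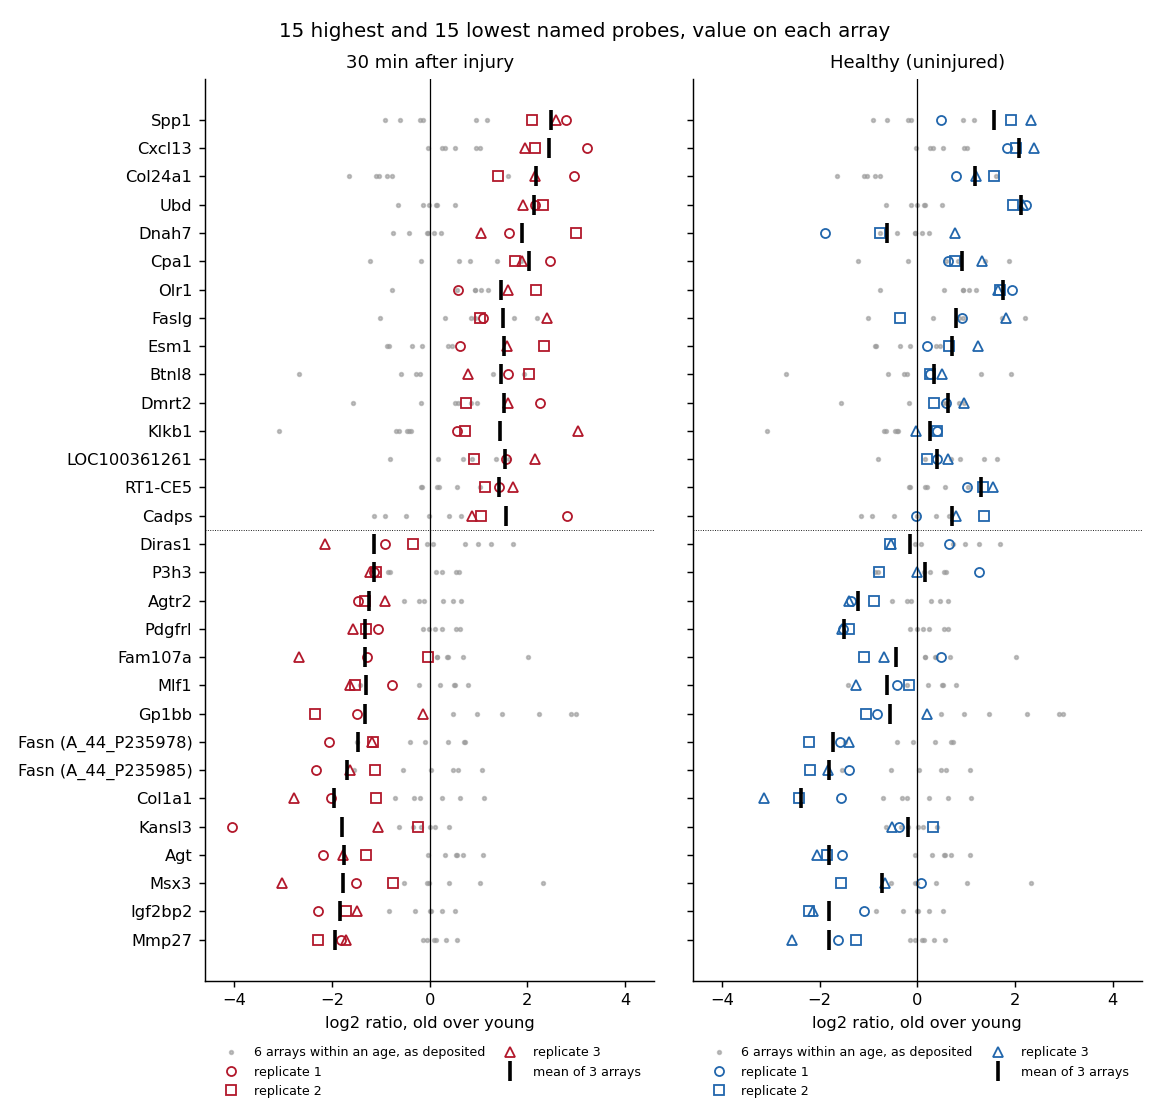
Log2 ratios of old over young on replicates 1, 2 and 3 (open symbols) and their mean (black bar) for the 15 highest and 15 lowest named probes, 30 min after injury on the left and in healthy arteries on the right, with the 6 arrays within an age at 30 min as grey points. Spp1, Cxcl13, Ubd, Agt, Igf2bp2 and Mmp27 lie on the same side in both panels, while the healthy means of Dnah7 and P3h3 lie on the opposite side.

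The values of the healthy arrays hold other artery samples, but they entered the spread and dye term of the fit that chose these probes, so the comparison is not independent of the choice. Of the 30 probes, 28 (93.3%) had the same sign in the mean of the 3 healthy arrays, against 3843 of the 5456 probes (70.4%) with the same sign on all 3 arrays at 30 min. On each of the 3 healthy arrays 20 of the 30 had this sign, as had 1370 of the 5456 (25.1%, or 6.4% of all 21394). With the same rule applied to a fit of only the 9 arrays at 30 min, which healthy arrays did not enter, 27 of 30 probes (90.0%) had the same sign in the healthy mean and 23 on each healthy array, and 24 of these 30 were among the 30 above. The 15 highest had a median fitted ratio of 1.67 at 30 min and a median healthy mean of 0.79, and the 15 lowest had −1.49 and −1.21. Spp1 read 0.49, 1.92 and 2.32 in healthy arteries, lowest on replicate 1. Cxcl13 read 1.83, 2.01 and 2.39, Ubd 2.23, 1.95 and 2.16, Agt −1.53, −1.86 and −2.05, and Pdgfrl −1.53, −1.41 and −1.55. All 5 genes thus had the same sign on all 3 healthy arrays. The difference between 30 min and healthy was tested in the same limma fit, and 0 of 41010 probes passed an adjusted p under 0.05, with 557 (1.36%) at an unadjusted p under 0.05 and 0 adjusted calls in each of the other fits that could give the contrast. Of the 30, the probes of Dnah7, Btnl8, Esm1, P3h3 and Kansl3 passed the unadjusted threshold. Esm1 read 0.20, 0.65 and 1.25 in healthy arteries on probe A_44_P189363, and Dnah7 read −1.89, −0.77 and 0.78.

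Gene lists were counted over 16421 genes, each the mean of its probes, at an unadjusted limma p under 0.05. By this rule 482 genes (2.94%) were higher and 313 (1.91%) lower in old arteries, and the median fitted ratio was −0.02. Together these 795 genes are about the share that an unadjusted p under 0.05 gives where nothing differs. The counts were 245 and 288 without replicate 1, 848 and 587 without replicate 2, and 235 and 146 without replicate 3. Only 3 genes (0.0183%), Spp1, Cxcl13 and Agt, passed an adjusted p under 0.05, so the list members that follow are called from the unadjusted rule. Pdgfrl did not, since its probes were averaged. With replicate 2 as deposited, the cytokine, endothelial and angiotensin lists described here had 0 genes past the rule, and the heat shock list had 0 higher and 1 lower. In healthy arteries 390 genes (2.38%) were higher and 224 (1.36%) lower by the same rule.

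Complement genes leaned to higher values in old arteries, with 4 of 16 higher, 0 lower and a median of 0.24. The 4 were factor B of the alternative pathway, Cfb (1.59, 0.94 and 1.79), the C1 proteases C1s (1.30, 0.24 and 1.24) and C1r (0.88, 0.33 and 0.42), and C4a (1.01, 0.64 and 0.40). Replicate 2 gave the lowest of the 3 values for Cfb, C1s and C1r. The same 4 genes passed in healthy arteries, where Cfb read 0.65, 0.47 and 1.42. With replicate 2 as deposited the list had 1 higher and 1 lower.

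Macrophage markers had 4 of 19 higher, 0 lower and a median of 0.17. Besides Olr1 these were the mannose receptor Mrc1 (0.60, 0.34 and 0.51), the Fc receptor Fcgr3a (1.84, 0.69 and 1.39) and Gpnmb (1.56, 0.14 and 0.41), which marks lipid-loaded macrophages. The general macrophage genes did not pass: Cd68 had a fitted ratio of 0.17, Csf1r 0.03 and Adgre1 0.04. The count fell to 1 without replicate 1 and to 2 without replicate 3. With replicate 2 as deposited it was 0. T and NK cell markers had 0 of 17 higher or lower, although with replicate 2 as deposited 3 were higher and the median was 0.21, and B cell and lymphoid stroma markers had only Cxcl13 of 12. Cytokines and chemokines had 3 of 29 higher, Cxcl13, the macrophage chemokine Ccl3 (0.93, 0.63 and 1.40) and Cxcl12 (0.58, 0.12 and 0.48), and 0 lower, but without replicate 3 only 1 was higher. The neutrophil chemokine Cxcl1 and the monocyte chemokine Ccl2 had no common direction, with −2.24, −0.38 and 0.45 for Cxcl1 and −2.49, 0.57 and 0.49 for Ccl2. Of 13 antigen presentation genes only the class I gene RT1-A2 was higher, with 0.90, 0.85 and 0.89 at 30 min and 0.86, 0.84 and 0.78 in healthy arteries.

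Collagen and matrix genes had 6 of 29 lower and 1 higher, with a median of −0.12. The collagen-binding matrix protein gene Sparc read −0.83, −0.91 and −1.60. The fibrillar collagen chains followed, with Col3a1 at −0.44, −1.38 and −1.33, Col1a2 at −0.36, −1.25 and −1.03, Col5a1 at −0.34, −0.15 and −1.06, and the mean of the Col1a1 probes at −0.99, −0.76 and −1.54. Fbn1 (fibrillin 1), of the elastic microfibrils, read −0.33, −0.21 and −0.88. Fibronectin, Fn1, was the 1 higher with 0.74, 0.51 and 0.79. Basement membrane, type VI and elastin genes did not pass, with fitted ratios of −0.18 for Col4a1, 0.06 for Col6a1 and −0.12 for Eln. In healthy arteries 8 of the 29 were lower and 0 higher, Col3a1 at −2.30, −1.995 and −1.43 and Sparc at −1.44, −0.94 and −1.06 among them. Without replicate 3 only 2 were lower, and with replicate 2 as deposited none. Of 20 matrix proteases and inhibitors, Mmp27 and Mmp2 (−0.48, −0.12 and −0.97) were lower and 0 higher, and of 13 imprinted and fetal growth genes, Igf2bp2 and the noncoding RNA H19 (−0.67, −1.48 and −0.90) were lower and 0 higher. The lower proteases were 4 without replicate 2 and 1 without replicate 3, and the lower imprinted genes were 1 without replicate 2.

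**Figure D4:**
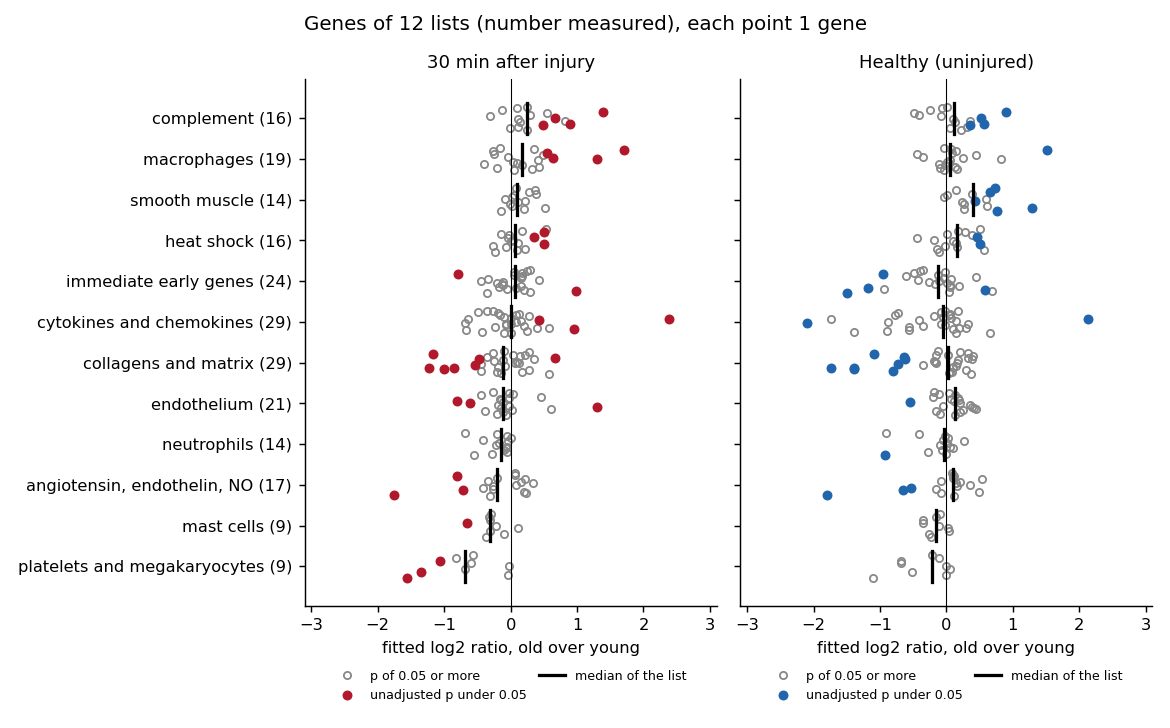
Fitted log2 ratio of old over young for each measured gene of 12 lists, 30 min after injury on the left and in healthy arteries on the right, with filled points past an unadjusted limma p under 0.05 and black bars at the list median. At 30 min complement has the highest median (0.24) and platelets the lowest (−0.68), and the low collagen genes stand out in both panels.

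In the renin-angiotensin, endothelin and nitric oxide list, 3 of 17 genes were lower and 0 higher, Agt, Agtr2 and the endothelial nitric oxide synthase Nos3 (−0.86, −0.34 and −0.97). The angiotensin-converting enzyme Ace read −0.28, −0.32 and −0.28 and did not pass, and the type 1 receptor Agtr1a had a fitted ratio of 0.23. Nos3 read 0.38, −0.08 and −0.22 in healthy arteries, above its 3 values at 30 min, and this difference was among the 1.31% of genes past the unadjusted threshold but not the adjusted one (limma adjusted p of 1.00).

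Endothelial markers had 5 of 21 above 0 and 16 below, with a median of −0.12. Nos3 and the gap junction gene Gja5 (−0.61, −0.80 and −0.39) were lower and Esm1 was higher. On the within-age arrays, as deposited, Gja5 lay between −2.72 and −0.95, and the sign of those ratios is not one of age. The defining markers Pecam1, Cdh5 and Kdr had fitted ratios of −0.14, −0.06 and −0.12 and did not pass. Without replicate 1 or without replicate 3 neither Nos3 nor Gja5 passed. Whether the share of endothelium left after the injury differed between ages was not tested. Smooth muscle markers had 0 of 14 higher or lower, with a median of 0.10, and in healthy arteries 5 were higher, with a median of 0.40. Whether this list differed between 30 min and healthy arteries was not tested. No single probe passed the adjusted threshold for that difference. The calponin gene Cnn1 read 0.90, 0.59 and 0.10 at 30 min and 0.06, 1.68 and 2.08 in healthy arteries. The regulatory light chain gene Myl9 was near 0, with 0.25, −0.15 and −0.23 on probe A_44_P365436 and −0.13, 0.41 and −0.91 on probe A_43_P10468, for fitted ratios of −0.02 ± 0.31 and −0.15 ± 0.40 (SE). The study, with its own processing and unadjusted thresholds, reports Myl9 as significantly lower in old arteries at this time. In healthy arteries the 2 Myl9 probes read −0.06, 0.91 and 1.11, and 0.37, 0.65 and 0.80. The smooth muscle myosin Myh11 read 0.93, 0.26 and 0.89 on probe A_44_P489468 and −0.22, −0.15 and −0.01 on probe A_44_P274021.

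Platelet and megakaryocyte markers had all 9 fitted ratios below 0, with a median of −0.68, and 3 lower: Gp1bb, the platelet factor 4 gene Pf4 (−1.43, −2.52 and 0.95) and the podoplanin receptor Clec1b (−2.14, −3.24 and 0.49). Replicate 3 went against the others, with list medians of −0.82, −1.77 and 0.34 on replicates 1, 2 and 3, and 1 of the 9 passed without replicate 1, 0 without replicate 2 and 5 without replicate 3. With replicate 2 as deposited the median was 0.33 and 0 passed. The red cell gene Hbb (beta globin) was lower on all 3 arrays with −1.35, −1.46 and −0.56, and on all 3 healthy arrays with −1.18, −1.76 and −1.23. Without replicate 1 or replicate 2 it did not pass. On the within-age arrays, as deposited, these genes lay above 0 throughout, between 0.72 and 2.88 for Pf4, 1.30 and 3.71 for Clec1b and 1.04 and 2.75 for Hbb. Whether these arrays set injured against control arteries, as headings of the study have it for the young, was not tested. Neutrophil markers had 13 of 14 below 0, with a median of −0.14 and 0 past the threshold, S100a9 reading −1.49, −1.24 and 0.73. The part of blood cells in the lower signals of old arteries was not tested.

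Immediate early genes, the first transcriptional response to stretch and injury, had 1 of 24 higher and 1 lower, with a median of 0.06. Ccn2, a matricellular target of mechanical strain, was higher with 0.93, 1.31 and 0.65, and Myc was lower with −2.20, 0.16 and −0.60. Replicate 1 stood apart in this list, with array medians of −0.42, 0.22 and 0.08. Nr4a3 read −1.61, 1.10 and 0.83 and Egr2 −1.59, 1.30 and 0.04, so neither had a common direction. Without replicate 1 neither Ccn2 nor Myc passed, and without replicate 2 the list had 0 higher and 1 lower. Fos (0.78, 0.12 and −0.10) and Egr1 (0.04, −0.68 and 0.38) did not pass. Heat shock genes had 3 of 16 higher and 0 lower. These were the chaperones Hsp90aa1 (0.36, 0.48 and 0.66), Hspa8 (0.28, 0.33 and 0.47) and the mitochondrial Hspd1 (0.56, 0.20 and 0.67), and none passed without replicate 3, while without replicate 2 there were 2 higher and 2 lower. Cell cycle genes had 0 of 22 past the threshold. Of 21 oxidative stress genes only the hydrogen peroxide-making oxidase Nox4 passed, higher with 0.63, 1.12 and 0.54 (2 shared values).

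Of the remaining genes that the study names, the splicing gene Rbm39 was higher with 0.62, 0.37 and 0.83 (all shared values) and passed the unadjusted threshold. Ncf4, a subunit of the phagocyte oxidase, read −0.29, −0.34 and −0.43 and did not pass. Its 6 within-age arrays, as deposited, lay between 0.44 and 0.86. The integrin gene Itga1 had a fitted ratio of 0.0037 ± 0.28 (SE), with −0.28, 0.62 and −0.28 on the arrays. The 2 Vegfa probes, the 2 Bcl2 probes and the 3 Cadps2 probes had fitted ratios between −0.29 and 0.30 and did not pass. All 3 values were shared for Vegfa A_43_P15572, Bcl2 A_44_P280776, Cadps2 A_44_P338381 and Cadps2 A_44_P461489, and 1 value for Bcl2 A_44_P360756.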

How the data were processed

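The authors hybridized total RNA of 2 arteries to each array, scanned with GenePix, applied Lowess normalization in Acuity and spot quality criteria, and also imported the arrays into GeneSpring. The step that made the deposited values is not given in the sources used here. Each deposited value is a log2 ratio between channels, with array medians near 0 and 0 missing values. Of 41010 probes, 21394 had 1 gene symbol, 19616 had none and 0 had several; 1 unnamed line was dropped, and 1 symbol was updated.

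The sign was turned on each old vs young array that had old RNA in Cy3, while the within-age arrays kept their deposited sign. The 20 arrays were modelled together in limma 3.58.1 (R 4.3.3), the comparisons taking 6 terms and the dye 1 term. This left 13 residual degrees of freedom. A fitted ratio thus differs from the mean of 3 arrays, as for Olr1 with 1.70 against 1.46. The dye term took its sign from the dye of channel 1. Within-age arrays were not turned, so on them it does not describe a dye bias if values are Cy5 over Cy3. With those arrays turned by dye, 0 probes passed an adjusted p under 0.05. Adjusted p-values are by Benjamini-Hochberg over all probes or all genes. The fit was tested on simulated data with normal noise at the residual spread of each probe. At an adjusted p under 0.05 it called 32 of 100 probes changed 2-fold, 90 of 100 changed 4-fold and 4 of 40810 unchanged. Most 2-fold changes were thus missed there. The simulated spread of a probe was equal on all 20 arrays, while the real arrays differed in spread, so these rates may not hold for the data. Named genes were those past an adjusted p under 0.05, the 15 highest and 15 lowest by the rule in the text, up to 4 genes with the smallest p in each described list, and genes the study names. Other members past the threshold, the defining cell markers, further probes of a named gene and members cited for lack of a common direction were added after their values were seen. The members and lists were chosen with earlier results of these data known. Promoter sequences are from RefSeq (GRCr8), which matched Spp1 and Cxcl13 and not Agt or Pdgfrl. Alternatives changed the samples, dye term, direction, scale, weights, centring, features, test and replicate block, and left out each replicate.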

Additional observations from a re-analysis of the deposited data

Results flagged for a closer look

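The sign of the old over young ratio at 30 min and in healthy arteries was compared for 60 list genes and 50 named probes. For 3 genes and 1 Vegfa probe it was one sign on all 3 arrays at 30 min and the opposite on the 3 healthy arrays. This held for 221 of all 16421 genes (1.35%) and 297 of the 21394 probes with a symbol (1.39%). Of the 3 genes, Pdgfra and Gapdh did not pass at 30 min. They were among the 60 because their ratio differed from that in healthy arteries at an unadjusted limma p under 0.05. The selection thus favoured an opposite sign, and the count is no result beside the share of all genes. The chemokine gene Cxcl12 read 0.58, 0.12 and 0.48 at 30 min and −0.19, −0.54 and −0.42 in healthy arteries, a difference of 0.84 ± 0.28 (SE). Pdgfra, the receptor of platelet-derived growth factor A, read 0.43, 0.01 and 0.64 at 30 min and −0.22, −0.47 and −0.54 in healthy arteries, a difference of 0.91 ± 0.35 (SE). The glycolytic gene Gapdh read −0.34, −0.25 and −0.52 at 30 min and 0.41, 0.51 and 0.23 in healthy arteries, a difference of −0.76 ± 0.28 (SE). The Vegfa probe A_43_P15572 read 0.21, 0.03 and 0.06 at 30 min, all shared values, and −0.28, −0.24 and −0.18 in healthy arteries, a difference of 0.26 ± 0.38 (SE). The other Vegfa probe, A_44_P300751, was below 0 on all 3 arrays at 30 min (−0.27, −0.15 and −0.31) and in healthy arteries (−0.13, −0.015 and −0.21), so the gene as a whole did not show an opposite sign. Each difference was tested as a contrast of the limma fit, and none passed after Benjamini-Hochberg adjustment (adjusted p of 1.00 for all 4). No explanation was tested.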

How the results depend on the processing

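Counts of adjusted calls depended on the fit. Main values were 4 probes and 3 genes. Probe counts were 0 with only the 3 arrays, with an unmoderated t-test of these arrays, with only old vs young arrays of 30 min and healthy arteries, with arrays within an age turned by dye and with replicate 2 as deposited, 2 with only the 9 arrays at 30 min or a dye term for each comparison (0 of them among the 4), 7 with arrays of 3 and 7 days as deposited (3 of the 4 among them), and 36 with all arrays at the same SD (63.9% higher, against 50% with all arrays as above) or with array weights, which held all 4. Centring left 3 (66.7% higher). With only probes that have a symbol there were 5, the 4 and RT1-CE5 A_44_P172850, and with only unshared values 6 (3 of the 4 among them). An alternative chosen after seeing the data, only the 12 arrays of 30 min and healthy arteries, gave 8 probes (3 of the 4 among them) and 8 genes. Gene counts were 0 with only the 3 arrays, with the unmoderated test and with replicate 2 as deposited, 1 with old vs young arrays of 30 min and healthy arteries, 17 at the same SD and 13 with weights. The 218 probes past the unadjusted p and 2-fold became 66 by the unmoderated test, which calls 0 after Benjamini-Hochberg, 577 at the same SD, 113 with only probes that have a symbol and 97 with only unshared values; with replicate 2 as deposited there were 183, of which 35 were among the 218. Leaving out 1 replicate gave 0 to 0 probes, 0 to 1 genes and 291 to 1172 probes by the unadjusted rule, the last without replicate 2. The replicate block gave 0 probes, 0 genes and 218 by the unadjusted rule. Same-number deviations of 30 min and healthy arrays correlated at −0.31, 0.11 and 0.13. Those arrays had opposite dye orientations, so the values cannot decide whether the numbers pair arrays. Without the block the difference between 30 min and healthy arteries had 0 calls, and with it also 0.

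Some fitted ratios changed sign. With replicate 2 as deposited these were Dnah7 (−0.15), Esm1 A_44_P189363 (−0.0092), Bcl2 A_44_P360756 (−0.021), Bcl2 A_44_P280776 (−0.068), Cadps2 A_44_P513568 (−0.0092), Itga1 (−0.44), Cadps2 A_44_P338381 (0.12), Myl9 A_44_P365436 (0.085), Col1a1 A_44_P419137 (0.0088), Gp1bb (0.32), Esm1 by gene (−0.019), Col1a2 (0.045), Cdkn2c (0.0096), Pf4 (0.74), Clec1b (0.75), S100b (−0.048), Agtr1a (−0.12), Col6a1 (−0.12), Csf1r (−0.022), Egr1 (0.43), Egr2 (−0.85), Nr4a3 (−0.54), Pecam1 (0.23), S100a9 (0.20), Acaca A_42_P489761 (0.14), RT1-CE5 A_42_P511274 (0.093), Esm1 A_43_P12257 (−0.029) and Agtr2 A_44_P343615 (0.042). With the replicate block these were Vegfa A_43_P15572 (−0.046), Itga1 (−0.063), Myl9 A_44_P365436 (0.14), Col6a1 (−0.0066), Egr2 (−0.0072) and RT1-CE5 A_42_P511274 (0.16). With only the 3 arrays, the unmoderated test or no dye term these were Cadps2 A_44_P513568 (−0.0087), Egr2 (−0.083), Acaca A_42_P489761 (0.095) and RT1-CE5 A_42_P511274 (0.065). With the 9 arrays at 30 min these were Cadps2 A_44_P513568 (−0.016), Cdh5 (0.022), Egr2 (−0.027), Acaca A_42_P489761 (0.018) and RT1-CE5 A_42_P511274 (0.058). With arrays of 3 and 7 days as deposited these were Cadps2 A_44_P513568 (−0.020), Egr2 (−0.077), Acaca A_42_P489761 (0.026), RT1-CE5 A_42_P511274 (0.065) and Pdgfrl A_44_P365794 (0.019). With the 12 arrays these were Cadps2 A_44_P513568 (−0.00057), Cdh5 (0.0090), Egr2 (−0.0075), Acaca A_42_P489761 (0.051) and RT1-CE5 A_42_P511274 (0.046). With within-age arrays turned by dye these were Cadps2 A_44_P338381 (0.047) and Egr1 (0.016). With old vs young arrays of 30 min and healthy arteries these were Acaca A_42_P489761 (0.076) and RT1-CE5 A_42_P511274 (0.014). With a dye term for each comparison these were Acaca A_42_P489761 (0.0011) and RT1-CE5 A_42_P511274 (0.016). With all arrays at the same SD these were RT1-CE5 A_42_P511274 (0.0069) and Pdgfrl A_44_P365794 (0.010). With array weights these were RT1-CE5 A_42_P511274 (0.018). With centring these were RT1-CE5 A_42_P511274 (0.0015). Leaving out each replicate in turn, ratios that changed sign spanned −0.11 to 0.12 for Bcl2 A_44_P280776, −0.062 to 0.10 for Cadps2 A_44_P513568, −0.41 to 0.17 for Itga1, −0.18 to 0.16 for Cadps2 A_44_P338381, −0.19 to 0.094 for Myl9 A_44_P365436, −0.40 to 0.14 for Myl9 A_43_P10468, −0.99 to 0.53 for Ccl2, −0.018 to 0.33 for Cd68, −0.19 to 0.013 for Cdh5, −0.099 to 0.23 for Col6a1, −0.037 to 0.16 for Csf1r, −1.31 to 0.038 for Cxcl1, −0.32 to 0.38 for Egr1, −0.39 to 0.67 for Egr2, −0.29 to 0.15 for Eln, −0.26 to 0.97 for Nr4a3, −0.23 to 0.012 for Pecam1, −0.20 to 0.023 for Acaca A_42_P489761, −0.047 to 0.077 for RT1-CE5 A_42_P511274 and −0.13 to 0.081 for Pdgfrl A_44_P365794. Every other ratio recomputed for the named genes and probes kept its direction in these alternatives. The causes were not tested.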

Other observations

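Genes of fatty acid synthesis were looked at after the low Fasn values were seen. Scd, which desaturates fatty acids, read −1.77, 0.07 and −0.93 at 30 min and −2.68, −3.58 and −1.996 in healthy arteries, where all 3 arrays were below the lowest at 30 min. The fitted difference was 2.34 ± 0.48 (SE), past an unadjusted p under 0.05 but not the adjusted threshold (limma with Benjamini-Hochberg, adjusted p of 1.00). The dye term enlarged it, since the array means were −0.87 at 30 min and −2.75 in healthy arteries. Acaca, which makes the malonyl donor for Fasn, read −1.24, −0.47 and −0.44 on probe A_44_P514379 and 0.33, −0.28 and 0.24 on probe A_42_P489761. By the unadjusted rule, among adipocyte genes, resistin, Retn, was lower with −1.80, −0.67 and −0.58, and lipoprotein lipase, Lpl, was higher with 0.12, 0.20 and 1.63, of which replicate 3 was the largest. The hypoxia-induced vasodilator peptide gene Adm read 0.25, 0.56 and 1.63, also largest on replicate 3. Osteoprotegerin, Tnfrsf11b, which blocks bone resorption and is made in the arterial wall, had a fitted ratio of 1.26, within the range of the within-age arrays on each array.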
